A study of Mus musculus with 8 samples.

Results

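The genes described here are 10 carriers of mouse liver, followed across diet and carbon tetrachloride (CCl4). They move bile acids, other organic anions or, for Abcb4, phospholipid into or out of hepatocytes. They were chosen by name from the table of expression values and are 10 of its 55487 genes. 5 of them import from blood (Slc10a1, Slco1a1, Slco1a4, Slco1b2 and Slco2b1), 3 export across the canalicular membrane into bile (Abcb11, Abcb4 and Abcc2), and 2 export back across the basolateral membrane into blood (Abcc3 and Abcc4).

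Bile acids circulate between liver and gut. Hepatocytes take them up from sinusoidal blood through the sodium-dependent carrier encoded by Slc10a1 and through organic anion transporting polypeptides encoded by Slco genes, and ATP-driven pumps then secrete them into the canaliculus together with phospholipid and conjugated anions. Basolateral pumps of the Abcc family return anions to blood and are known for being induced in cholestatic liver, where uptake carriers are typically reduced.

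The study measured poly(A)-selected liver RNA from male wild-type C57BL/6N mice, with 8 libraries in 4 groups. 1 library came from western diet with CCl4 (WD+CCl4), 2 from normal chow with CCl4 (ND+CCl4), 2 from western diet with corn oil (WD+oil) and 3 from normal chow with corn oil (ND+oil). The western diet was a high-fat feed given with a drink that held 23.1 g/L fructose and 18.9 g/L glucose, and mice on normal chow drank tap water. CCl4, a solvent that cytochrome P450 enzymes of hepatocytes turn into toxic radicals, or the corn oil vehicle was injected into the abdomen every week, and the dose, the duration and the ages are not given in the sources used here. Nothing states that the libraries are separate animals, so p-values cover only how far these libraries varied, possibly for technical reasons, and the single WD+CCl4 library was assumed to vary like those of the other groups.

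Values are FPKM, fragments scaled to transcript length and to the total of the library, so depth behind a value is unknown. The FPKM of a library summed to between 514832 and 612747, between 12531 and 14843 genes were above 0, and the lowest value above 0 lay between 0.252 and 0.318. Major urinary protein genes took 7.06% of the sum in the WD+CCl4 library, 2.33% and 3.98% in ND+CCl4, 8.16% and 8.61% in WD+oil, and between 15.6% and 30.6% in ND+oil. The log2 fold changes of the 11514 tested genes were not centred on 0: their median was 0.19 for WD+CCl4, 0.26 for ND+CCl4 and 0.22 for WD+oil, each against ND+oil, and it was 0.00477, 0.00029 and -0.00199 after median-of-ratios scaling. Folds below are on the log2(FPKM + 1) scale from limma with Benjamini-Hochberg adjustment over all tested genes, and a gene passed at an adjusted p under 0.05. The 11 measured hepatocyte markers summed to 45749 FPKM in WD+CCl4, 53711 and 61521 in ND+CCl4, 36569 to 44325 in WD+oil and 38074 to 46759 in ND+oil, led by albumin (Alb) at 15558 FPKM or more in every library.

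All 10 genes are protein coding, and their identifiers match the GRCm38 annotation. Slco1b2 (chromosome 6, 141629518-141686646), Slco1a4 (141805440-141856199) and Slco1a1 (141907282-141946962) are neighbours on that chromosome, Slco1b2 on the plus strand and the other two on the minus strand. Slc10a1 lies on chromosome 12 (80953183-80968705), Slco2b1 on chromosome 7 (99657804-99711340), Abcb11 on chromosome 2 (69238282-69342616) and Abcb4 on chromosome 5 (8893717-8959231). Abcc2 lies on chromosome 19 (43782192-43840740), Abcc3 on chromosome 11 (94343295-94392997) and Abcc4 on chromosome 14 (118482692-118706219). Reads of the related Slco1a genes could be confused, but 97.7% of the 50-base windows of the longest Slco1a1 transcript and 97.3% of those of Slco1a4 occurred in no other listed gene, and the related Slco1a5 and Slco1a6 were listed at 0 in all 8 libraries.

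The 250 bases upstream of the start site are shown for the genes that passed in at least 1 comparison (Slco1a1, Slco1a4 and Abcb4) and for the pair that held an inverted repeat of the type bound by the bile acid receptor FXR (Abcb11 and Slco1b2). The sequences are from RefSeq on GRCm38.p6, read 5′ to 3′ on the strand of the gene, and 9 of the 10 genes had an entry. Capitals mark motif matches: the inverted repeat IR-1 (AGGTCA and TGACCT around 1 free base, with at most 1 mismatch) and the STAT site TTCNNNGAA.
Slco1a1, chr6:141946963-141947212, minus strand: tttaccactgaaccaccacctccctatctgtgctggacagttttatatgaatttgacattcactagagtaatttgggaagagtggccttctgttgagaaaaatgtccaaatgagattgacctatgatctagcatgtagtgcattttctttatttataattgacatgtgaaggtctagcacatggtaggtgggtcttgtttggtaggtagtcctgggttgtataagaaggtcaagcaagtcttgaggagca
Slco1a4, chr6:141856221-141856470, minus strand: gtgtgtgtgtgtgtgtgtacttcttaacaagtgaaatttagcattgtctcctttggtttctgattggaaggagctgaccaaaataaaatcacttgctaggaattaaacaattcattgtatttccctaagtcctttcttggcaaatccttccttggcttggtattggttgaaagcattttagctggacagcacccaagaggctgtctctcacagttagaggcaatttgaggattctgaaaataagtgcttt
Abcb4, chr5:8893471-8893720, plus strand: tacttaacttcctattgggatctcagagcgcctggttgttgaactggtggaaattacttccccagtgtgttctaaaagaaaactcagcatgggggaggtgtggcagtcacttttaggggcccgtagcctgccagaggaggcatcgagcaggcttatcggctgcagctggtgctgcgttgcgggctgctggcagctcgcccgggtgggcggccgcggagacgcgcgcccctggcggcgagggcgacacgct
Abcb11, chr2:69342617-69342866, minus strand: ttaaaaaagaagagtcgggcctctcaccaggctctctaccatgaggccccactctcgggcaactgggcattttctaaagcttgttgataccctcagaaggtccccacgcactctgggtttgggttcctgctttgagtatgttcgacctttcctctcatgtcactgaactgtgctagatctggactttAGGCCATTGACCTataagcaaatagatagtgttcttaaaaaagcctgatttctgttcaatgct
Slco1b2, chr6:141629268-141629517, plus strand: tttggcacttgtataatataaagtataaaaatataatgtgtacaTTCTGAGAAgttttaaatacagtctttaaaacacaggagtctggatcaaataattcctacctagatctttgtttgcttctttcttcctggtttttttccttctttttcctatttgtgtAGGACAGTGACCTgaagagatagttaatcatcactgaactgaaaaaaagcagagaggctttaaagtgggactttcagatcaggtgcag
The Abcb11 window held AGGCCATTGACCT 63 bases before the start and the Slco1b2 window held AGGACAGTGACCT 88 bases before it, whereas 26 of all 32851 promoter windows (0.0791%) held such a repeat. The other motifs searched, on both strands, were the STAT site (7.02% of windows), the antioxidant response element core TGACNNNGC (10.2%), an HNF1 site (GTTAAT and ATTAAC around 1 free base) with at most 2 mismatches (1.24%) and the direct repeat DR-4 (AGTTCA and AGTTCA, 4 free bases apart) with at most 2 mismatches (1.85%). Some genes had several windows. A STAT site was in the Slc10a1 window at the annotated gene start, but not in its other window. For Slco2b1 it was only in a window 15531 bases from the annotated start, not in the other windows. The Abcc2 window held an antioxidant core and an HNF1 match. Both Abcc4 windows, 0 and 29288 bases from the annotated start, held an antioxidant core. None of these letter patterns was in the Slco1a1, Slco1a4 or Abcb4 windows, which says nothing about the factors.

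Among the uptake genes, Slco1a1 was lower in each of the other groups than in ND+oil, whereas Slc10a1 and Slco1b2, which made up most of the uptake level, did not pass in any comparison. Slco1a1 encodes a broad-specificity organic anion carrier that is more abundant in male than in female mouse liver. Its level was 7.19 FPKM in the WD+CCl4 library, 4.22 and 5.65 FPKM in ND+CCl4, 21.2 and 14.4 FPKM in WD+oil, and 59.6, 50.1 and 67.9 FPKM in ND+oil. No library of the other groups reached the lowest ND+oil library, and the CCl4 libraries were below both WD+oil libraries. The log2 fold change against ND+oil was -2.87 ± 0.29 (SE) in WD+CCl4 (adjusted p = 0.00696, limma), -3.34 ± 0.23 in ND+CCl4 (adjusted p = 0.00205) and -1.69 ± 0.23 in WD+oil (adjusted p = 0.0152). Relative to the median over tested genes these folds were -3.06, -3.61 and -1.91. Mean levels were 4.93 ± 1.01 FPKM in ND+CCl4 (SD, n = 2), 17.8 ± 4.83 FPKM in WD+oil (SD, n = 2) and 59.2 ± 8.91 FPKM in ND+oil (SD, n = 3). The WD+oil call was lost when either WD+oil library was left out, with adjusted p = 0.0751 without library 1 and 0.182 without library 2, and also with no filter on low values (0.0504). The WD+CCl4 and ND+CCl4 calls held without each library in turn, in 7 of 7 and 8 of 8 fits.

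Slco1a4, the neighbour of Slco1a1 on chromosome 6, encodes another organic anion carrier, which in mice is a known target of the xenobiotic receptor PXR. It was at 0.914 FPKM in the WD+CCl4 library, 9.69 and 10.1 FPKM in ND+CCl4, 2.06 and 2.28 FPKM in WD+oil, and 6.20, 3.44 and 3.23 FPKM in ND+oil. Both ND+CCl4 libraries were above every other library, and the western diet libraries, with and without CCl4, were below every ND+oil library. None of these differences from ND+oil passed, at 1.09 ± 0.24 on the log2 scale in ND+CCl4 (adjusted p = 0.0767), -1.42 ± 0.30 in WD+CCl4 (adjusted p = 0.0836) and -0.70 ± 0.24 in WD+oil (adjusted p = 0.132). ND+CCl4 did pass against WD+oil for Slco1a4, at 1.78 ± 0.26 (adjusted p = 0.0317). Slco1a1 went the other way in that comparison, at -1.65 ± 0.25 (adjusted p = 0.0351). Both calls were lost after median-of-ratios scaling (adjusted p = 0.0522 for Slco1a4 and 0.0635 for Slco1a1) and without any library of ND+CCl4 or WD+oil, with the highest adjusted p without WD+oil library 1 (0.252 and 0.256). The Slco1a4 difference between ND+CCl4 and ND+oil passed when each library was rescaled to a common FPKM sum (adjusted p = 0.0331) and without ND+oil library 1 (adjusted p = 0.0234), the library with the highest Slco1a4 of its group.

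Because both genes are read in the same library, their ratio does not depend on scaling between libraries. The ratio of Slco1a4 to Slco1a1 was 0.127 in the WD+CCl4 library, 2.30 and 1.79 in ND+CCl4, 0.0971 and 0.159 in WD+oil, and 0.104, 0.0687 and 0.0476 in ND+oil. Slco1a4 exceeded Slco1a1 in the ND+CCl4 libraries and in no other library.

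**Figure D1:**
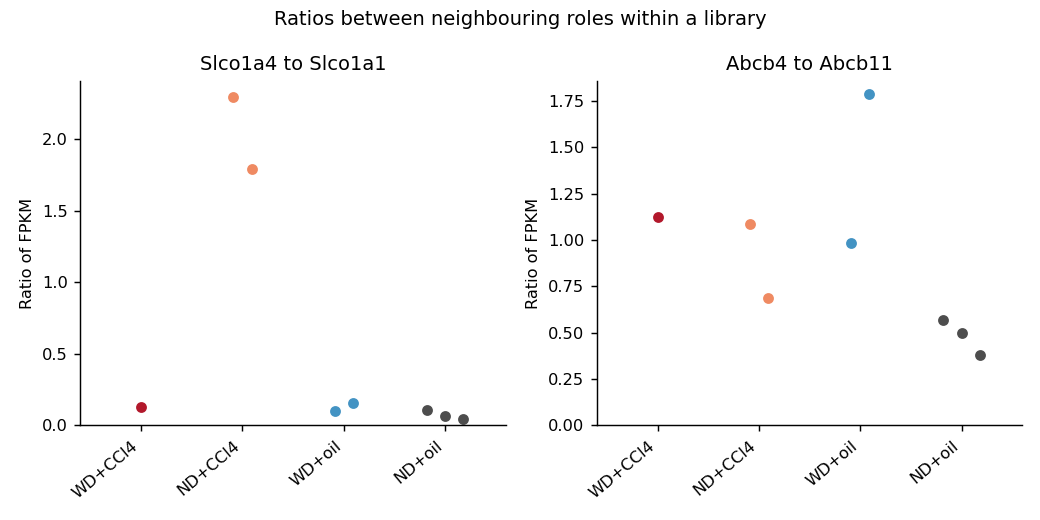
Ratio of Slco1a4 to Slco1a1 (left) and of Abcb4 to Abcb11 (right) within each library, on the y axis without unit, by group; each point is a library. The ND+CCl4 libraries stand apart on the left at 2.30 and 1.79, and on the right the ND+oil libraries, at 0.567 or less, are below all others.

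Slc10a1 encodes the sodium-dependent carrier NTCP, the main route of conjugated bile acids into hepatocytes. It was at 140.6 FPKM in the WD+CCl4 library, 140.2 and 262 FPKM in ND+CCl4, 191 and 163 FPKM in WD+oil, and 226, 269.6 and 193 FPKM in ND+oil. The WD+CCl4 and WD+oil libraries were all below the ND+oil range, while ND+CCl4 library 1 was below it and library 2 within it. Its log2 fold change was -0.69 ± 0.37 in WD+CCl4 (adjusted p = 0.42), -0.25 ± 0.29 in ND+CCl4 (adjusted p = 0.587) and -0.36 ± 0.29 in WD+oil (adjusted p = 0.486). The 95% interval in WD+oil ran from -1.03 to 0.31.

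Slco1b2 encodes the liver-specific organic anion carrier OATP1B2. Its level was 116 FPKM in WD+CCl4, 95.9 and 130.3 FPKM in ND+CCl4, 145 and 118 FPKM in WD+oil, and 142, 163 and 145 FPKM in ND+oil. The CCl4 libraries were all below ND+oil, with log2 fold changes of -0.36 ± 0.26 in WD+CCl4 (adjusted p = 0.559) and -0.42 ± 0.21 in ND+CCl4 (adjusted p = 0.261), and WD+oil overlapped ND+oil (-0.20 ± 0.21, adjusted p = 0.598). Slco2b1, a carrier of steroid sulfates and other anions, was within 22.6 to 30.3 FPKM in all 8 libraries. WD+CCl4, ND+CCl4 and WD+oil each overlapped ND+oil, and its fold against ND+oil lay between -0.03 and 0.17 on the log2 scale, with a sign that turned under other scalings.

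**Figure D2:**
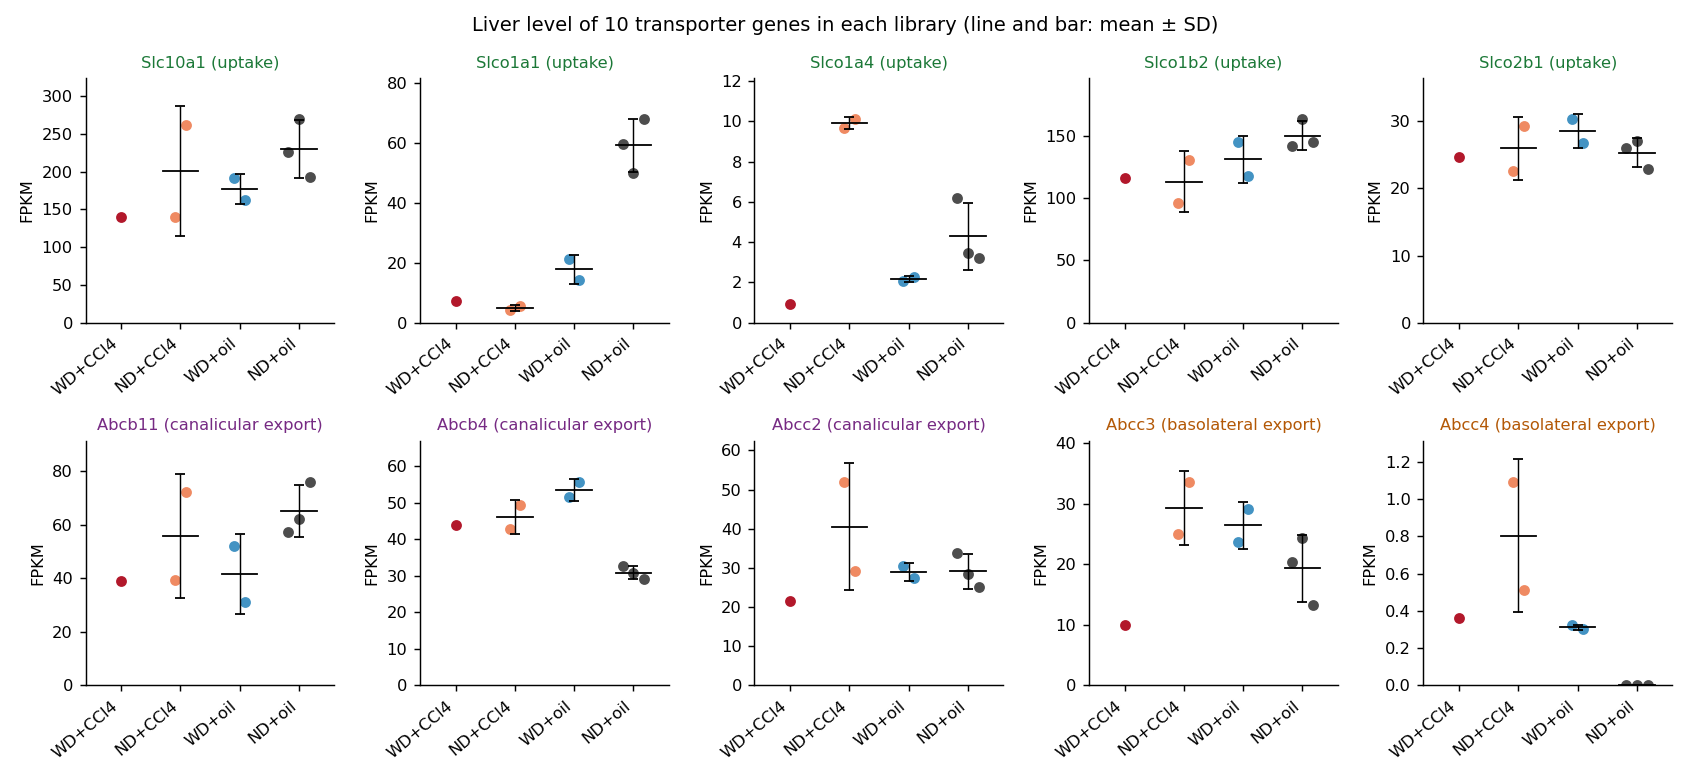
Level in FPKM (y axis, linear, from 0) of each of the 10 transporter genes in the 8 libraries by group; points are libraries, and the line and bar are mean ± SD where a group has more than 1 library. Slco1a1 is highest in the 3 ND+oil libraries, Slco1a4 in the 2 ND+CCl4 libraries, and Abcb4 is lowest in ND+oil.

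Among the canalicular exporters, Abcb4 was higher in WD+oil than in ND+oil, and Abcb11 and Abcc2 did not pass in any comparison. Abcb4 encodes MDR2, the floppase that brings phosphatidylcholine into bile. It was at 43.8 FPKM in the WD+CCl4 library, 42.7 and 49.4 FPKM in ND+CCl4, 51.4 and 55.6 FPKM in WD+oil, and 32.6, 30.8 and 29.1 FPKM in ND+oil. Every library of the other groups was above every ND+oil library. Only the WD+oil difference passed, at 0.78 ± 0.16 on the log2 scale (adjusted p = 0.0433). The differences in WD+CCl4 (0.50 ± 0.21, adjusted p = 0.31) and ND+CCl4 (0.56 ± 0.16, adjusted p = 0.13) did not. Relative to the median of all tested genes the folds were 0.31 in WD+CCl4, 0.30 in ND+CCl4 and 0.56 in WD+oil. The WD+oil call for Abcb4 was lost after median-of-ratios scaling, which gave 0.51 with adjusted p = 0.179, and it held in 3 of 8 fits that each left out 1 library, with the highest adjusted p, 0.336, without WD+oil library 2. It was lost without either WD+oil library or any of the ND+oil libraries.

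Abcb11 encodes the bile salt export pump BSEP, the step that drives bile acids into the canaliculus. Its level was 38.9 FPKM in WD+CCl4, 39.4 and 72.2 FPKM in ND+CCl4, 52.1 and 31.1 FPKM in WD+oil, and 57.5, 62.1 and 76.1 FPKM in ND+oil. The western diet libraries were all below ND+oil. The ND+CCl4 libraries, at 39.4 and 72.2 FPKM, spanned much of the range of the series, which was 31.1 to 76.1 FPKM. The log2 fold change was -0.72 ± 0.40 in WD+CCl4 (adjusted p = 0.441), -0.28 ± 0.31 in ND+CCl4 (adjusted p = 0.575) and -0.67 ± 0.31 in WD+oil (adjusted p = 0.251). The ratio of Abcb4 to Abcb11, which scaling between libraries does not change, was 1.13 in WD+CCl4, 1.08 and 0.684 in ND+CCl4, 0.986 and 1.79 in WD+oil, and 0.567, 0.495 and 0.382 in ND+oil. It was higher in all 5 libraries of the other groups than in any ND+oil library.

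Abcc2 encodes MRP2, the canalicular pump for conjugated bilirubin and glutathione conjugates. It was at 21.6 FPKM in WD+CCl4, 52.0 and 29.1 FPKM in ND+CCl4, 30.5 and 27.4 FPKM in WD+oil, and 33.9, 28.3 and 25.2 FPKM in ND+oil. The WD+CCl4 library was the lowest and ND+CCl4 library 1 the highest, and the remaining libraries lay together. Its log2 fold change was -0.41 ± 0.33 in WD+CCl4 (adjusted p = 0.6), 0.42 ± 0.26 in ND+CCl4 (adjusted p = 0.337) and 0.00017 ± 0.26 in WD+oil (adjusted p = 1).

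Neither basolateral exporter passed in any comparison. Abcc3 encodes MRP3, a pump for glucuronides and bile acids. Its level was 9.94 FPKM in the WD+CCl4 library, 24.98 and 33.6 FPKM in ND+CCl4, 23.6 and 29.2 FPKM in WD+oil, and 20.3, 24.3 and 13.3 FPKM in ND+oil. The WD+CCl4 library was below all others and both ND+CCl4 libraries were above ND+oil. Abcc3 had a log2 fold change of -0.85 ± 0.34 in WD+CCl4 (adjusted p = 0.287), 0.60 ± 0.27 in ND+CCl4 (adjusted p = 0.228) and 0.46 ± 0.27 in WD+oil (adjusted p = 0.345). Abcc4 encodes MRP4, which exports bile acids together with glutathione. It was at 0.362 FPKM in WD+CCl4, 1.09 and 0.512 FPKM in ND+CCl4 and 0.323 and 0.302 FPKM in WD+oil, and it was listed at 0 in all 3 ND+oil libraries. Every library of the other groups was thus above ND+oil, but most of these values were near the lowest that the libraries list above 0. Abcc4 reached the filter of 1 FPKM in a single library and was not tested, and no fold is given against a group listed at 0.

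Of the 10 genes, 9 entered the test across genes. 1 of the 9 passed in WD+CCl4 against ND+oil (Slco1a1, lower), where 0.929% of all tested genes passed, 0.261% of them lower. 1 passed in ND+CCl4 against ND+oil (Slco1a1, lower), where 1.42% passed, 0.4% lower. 2 passed in WD+oil against ND+oil (Slco1a1 lower and Abcb4 higher), where 4.41% passed, 3.81% higher and 0.599% lower. These comparisons share the ND+oil libraries. At an unadjusted p under 0.05 there were 4 of the 9 in WD+CCl4 (1758 of all tested genes), 3 in ND+CCl4 (2621) and 3 in WD+oil (2681). The median log2 fold change of the 9 genes was -0.69 in WD+CCl4, 0.03 in ND+CCl4 and -0.20 in WD+oil, beside 0.19, 0.26 and 0.22 over all tested genes.

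The separation between groups was also counted. In the WD+CCl4 library 7 of the 9 genes were below every ND+oil library, as were 13.4% of all tested genes, and 1 was above, as were 51.5%. In ND+CCl4, 2 of the 9 were below every ND+oil library and 3 were above, beside 3.8% and 41.8% of all tested genes. In WD+oil, 4 of the 9 were below and 1 above, beside 5.18% and 40.7%.

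**Figure D3:**
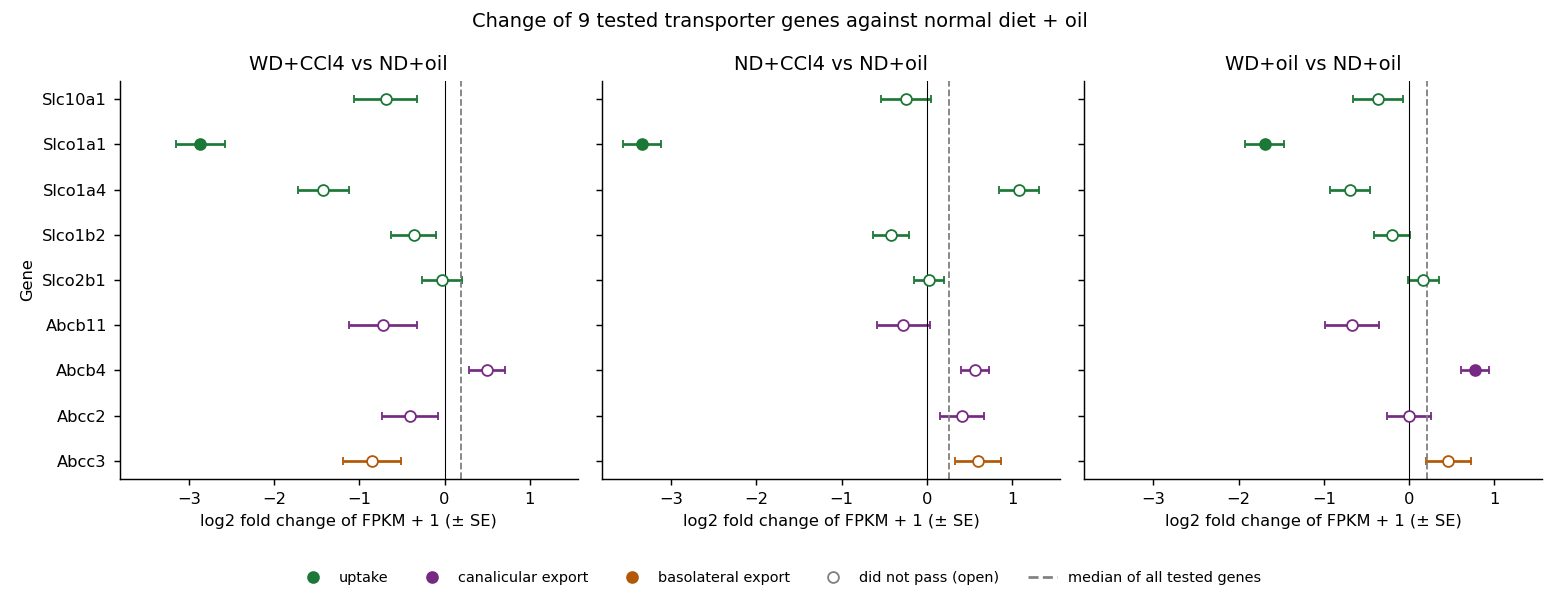
Log2 fold change of FPKM + 1 against ND+oil (x axis, ± SE) for the 9 tested genes, in panels for WD+CCl4, ND+CCl4 and WD+oil; filled points passed the adjusted p threshold, and the dashed line is the median over the tested genes. Slco1a1 is filled in every panel, at -2.87, -3.34 and -1.69, and Abcb4 in the WD+oil panel at 0.78.

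Summed over its genes, with Slco1a1 and Abcb4 included, uptake was lower relative to canalicular export in every library of the other groups than in ND+oil. The uptake sum was 289.9 FPKM in WD+CCl4, 273 and 438 FPKM in ND+CCl4, 389.6 and 324 FPKM in WD+oil, and 460.1, 514 and 433 FPKM in ND+oil. The canalicular sum was 104 FPKM in WD+CCl4, 134 and 151 FPKM in ND+CCl4, 134 and 114 FPKM in WD+oil, and 124, 121 and 130.4 FPKM in ND+oil. The uptake sum separated WD+CCl4 and WD+oil from ND+oil, while the canalicular sum of WD+oil overlapped that of ND+oil, that of ND+CCl4 was above it and that of WD+CCl4 below it. Their ratio was 2.78 in WD+CCl4, 2.03 and 2.90 in ND+CCl4, 2.91 and 2.84 in WD+oil, and 3.71, 4.24 and 3.32 in ND+oil. The ratio in all 5 libraries of the other groups was thus below the lowest ND+oil ratio. The canalicular sum includes Abcb4, which carries phospholipid and was higher in these 5 libraries than in ND+oil. The uptake sum includes Slco1a1, which was lower in them. The separation of the ratio and of the uptake sum is thus not a separate result from these genes, and says little about bile acid carriers in general. The ratio of Abcb11 to Slc10a1 was 0.277 in WD+CCl4, 0.281 and 0.275 in ND+CCl4, and 0.272 and 0.191 in WD+oil. It was 0.254, 0.230 and 0.394 in ND+oil, and each of the other groups overlapped that range. Neither ratio was tested, and a two-sided exact permutation test of 2 against 3 libraries cannot go below 0.2.

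The basolateral sum was 10.3 FPKM in WD+CCl4, 26.1 and 34.1 FPKM in ND+CCl4, 24.0 and 29.5 FPKM in WD+oil, and 20.3, 24.3 and 13.3 FPKM in ND+oil. Uptake relative to basolateral export was 28.2 in WD+CCl4, 10.5 and 12.8 in ND+CCl4, 16.3 and 11.0 in WD+oil, and 22.6, 21.1 and 32.5 in ND+oil. Both single-treatment groups were below ND+oil in this ratio, and the WD+CCl4 library, with the lowest Abcc3, was within the ND+oil range.

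The make-up of uptake also differed. Slco1a1 made up 2.48% of the uptake sum in WD+CCl4, 1.55% and 1.29% in ND+CCl4, 5.44% and 4.43% in WD+oil, and 12.9%, 9.76% and 15.7% in ND+oil. Slc10a1 and Slco1b2 together made up 88.7% in WD+CCl4, 86.6% and 89.7% in ND+CCl4, 86.2% and 86.6% in WD+oil, and 80.1%, 84.3% and 78.3% in ND+oil. The second share was above the ND+oil range in every library of the other groups. Slco1a1 is part of the uptake sum, so its fall raises this share, and the shares are not separate results. The group means of Slc10a1 and Slco1b2 themselves were below those of ND+oil in each of the other groups.

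**Figure D4:**
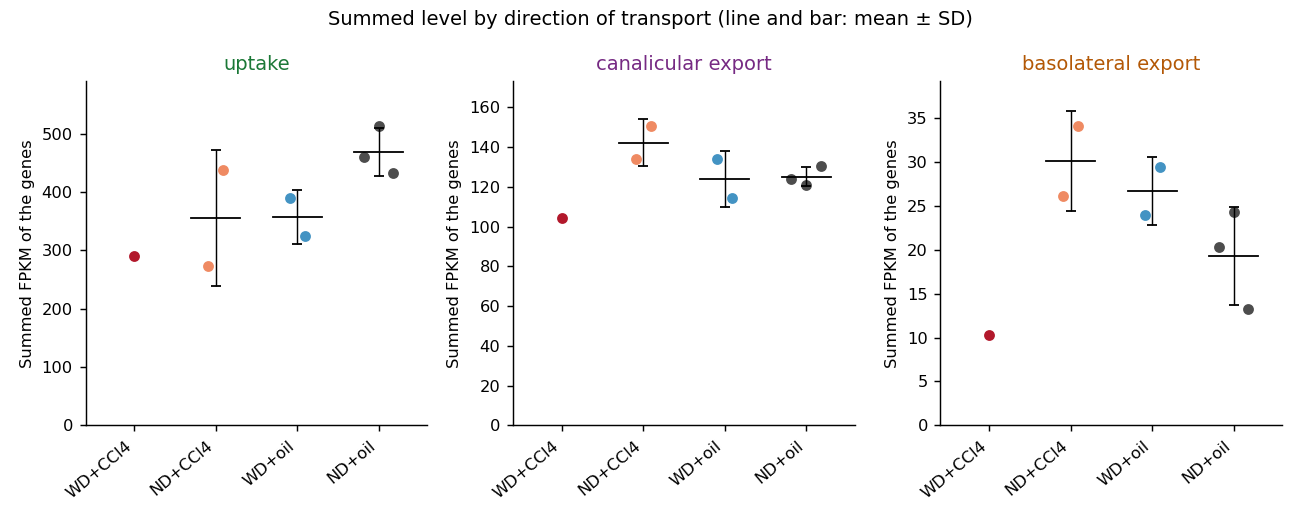
Summed level in FPKM (y axis, linear, from 0) of the 5 uptake, 3 canalicular and 2 basolateral genes in each library by group; points are libraries, and the line and bar are mean ± SD where a group has more than 1 library. The uptake sums of WD+CCl4 and WD+oil, at 389.6 FPKM or less, are below the ND+oil sums, and the WD+CCl4 library has the lowest basolateral sum, at 10.3 FPKM.

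The addition of CCl4 to western diet was compared with WD+oil. None of the 9 genes passed in limma, where 0.0434% of all tested genes did. At an unadjusted p under 0.05 there were 2 of the 9 (482 of all 11514 tested genes). Slco1a1 had a log2 fold change of -1.17 ± 0.30 (adjusted p = 0.663) and Abcc3 one of -1.32 ± 0.36 (adjusted p = 0.68). With only the 3 libraries of WD+CCl4 and WD+oil in the fit, the Abcc3 fold was the same, at -1.32. Abcc3 passed there, but spread within groups came from the 2 WD+oil libraries alone. In ND+CCl4 against WD+oil the pair Slco1a1 and Slco1a4 passed, as above, beside 0.617% of all tested genes, 0.208% higher and 0.408% lower. Whether the effects of diet and CCl4 differed from their sum was tested as an interaction. None of the 9 genes passed in it, beside 0.0608% of all tested genes. With an unadjusted p under 0.05 there were 4 of the 9 (1126 of all 11514 tested genes).

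Other transporters of the same routes, from lists chosen with earlier results of these data known, changed in few cases. Of 5 tested other uptake genes, 2 fell in WD+oil against ND+oil and none rose, and none passed in ND+CCl4 or WD+CCl4 (limma, 2 and 2 at an unadjusted p under 0.05). The prostaglandin carrier Slco2a1 fell by 1.36 ± 0.24 on the log2 scale (adjusted p = 0.0275) and the organic anion carrier Slc22a7 fell by 1.32 ± 0.26 (adjusted p = 0.0353). These calls held in 4 and 3 of 8 fits without 1 library, and adjusted p was 0.278 and 0.299 without WD+oil library 2. Slc10a2, the ileal bile acid carrier that cholangiocytes also use, had 0.86 ± 0.23 in WD+oil (adjusted p = 0.0728). None of 8 other canalicular exporters passed in limma in WD+CCl4, ND+CCl4 or WD+oil, with 0, 2 and 4 at an unadjusted p under 0.05. Abcg5, which with Abcg8 forms the sterol exporter of the canaliculus, was at 15.5 FPKM in WD+CCl4, 20.5 and 13.8 FPKM in ND+CCl4, 51.4 and 52.0 FPKM in WD+oil, and 19.03, 27.1 and 11.5 FPKM in ND+oil. Both WD+oil libraries were above all others for Abcg5, at a log2 fold change of 1.46 ± 0.33 (adjusted p = 0.0503), and Abcg8 had 0.96 ± 0.25 (adjusted p = 0.0738). None of 4 other basolateral exporters passed in limma in WD+CCl4, ND+CCl4 or WD+oil (0, 1 and 1 at an unadjusted p under 0.05), nor did any of 9 genes that place these carriers in the membrane (1, 2 and 2).

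Of 17 genes of bile acid synthesis and conjugation, 1 fell in WD+CCl4, 1 fell and 1 rose in ND+CCl4, and 1 fell in WD+oil, each against ND+oil. The gene that fell was Cyp7b1, the oxysterol hydroxylase of the acidic pathway, which is also more abundant in male liver. It was at 27.5 FPKM in WD+CCl4, 25.9 and 19.7 FPKM in ND+CCl4, 22.5 and 22.7 FPKM in WD+oil, and 113, 89.1 and 172 FPKM in ND+oil. None of these groups overlapped with ND+oil, and the log2 fold change was -2.09 in WD+CCl4, -2.36 in ND+CCl4 and -2.36 in WD+oil. Without 1 library the Cyp7b1 call held in 3 of 7, 7 of 8 and 6 of 8 fits of these comparisons, with adjusted p of at most 0.118, 0.0578 and 0.142. Cyp39a1, another oxysterol hydroxylase, rose in ND+CCl4 by 1.64 ± 0.28 (adjusted p = 0.0389), a call that held in 2 of 8 fits without 1 library. Cyp8b1, the cholic acid sterol hydroxylase, had -1.84 ± 0.35 in ND+CCl4 (adjusted p = 0.0524). None of 17 regulators of transporter genes passed in limma in WD+CCl4, ND+CCl4 or WD+oil, with 1, 4 and 3 at an unadjusted p under 0.05. Among them, Nr1h4, which encodes FXR, had 0.57 ± 0.19 in ND+CCl4 (adjusted p = 0.156). Nfe2l2, which encodes NRF2, had 0.78 ± 0.25 in ND+CCl4 (adjusted p = 0.144) and 0.77 ± 0.25 in WD+oil (adjusted p = 0.114).

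Target genes of the receptors and factors known to act on Slco1a4, Abcc2, Abcc3 and Abcc4 were counted beside them. Of 14 tested NRF2 targets, 4 rose in ND+CCl4 and none fell, and none passed in WD+CCl4 or WD+oil (limma, 2 and 5 at an unadjusted p under 0.05). The glutathione transferase Gsta1 had a log2 fold change of 4.96 ± 0.80 in ND+CCl4 (adjusted p = 0.0327), Gsta2 3.16 ± 0.31 (adjusted p = 0.00518) and Gstm3 3.51 ± 0.33 (adjusted p = 0.0044); the fourth was the quinone reductase Nqo1. Without 1 library in turn, the call held in 8 of 8 fits for Gstm3, 7 of 8 for Gsta2, and 2 of 8 each for Gsta1 and Nqo1. Without ND+CCl4 library 1 the log2 fold change was 2.95 for Gstm3, 3.13 for Gsta2, 3.58 for Gsta1 and 1.04 for Nqo1. The Gsta1 and Nqo1 calls were also lost with no filter and with median-of-ratios scaling. Gsta1 and Gsta2 are near-identical copies whose reads may be divided by the counting, so their separate values are uncertain. Of 11 tested PXR and CAR targets, 3 fell in WD+CCl4 (Cyp3a11, Cyp2c55 and Cyp2c29), 2 rose in ND+CCl4 (Cyp3a11 and Cyp2c55), and Cyp2b9 rose and Cyp2c55 fell in WD+oil. Cyp3a11, a drug-metabolizing cytochrome P450, was at 163 FPKM in WD+CCl4, 1792 and 2178 FPKM in ND+CCl4, 337 and 389 FPKM in WD+oil, and 914, 565 and 648 FPKM in ND+oil. Cyp2c55 was listed at 0 in WD+CCl4 and was at 13.6 and 10.6 FPKM in ND+CCl4, 0.663 and 0.48 FPKM in WD+oil, and 4.40, 3.51 and 1.84 FPKM in ND+oil. Both, chosen after their values were seen, had their highest group mean in ND+CCl4 and their lowest in WD+CCl4. This order of means held for 5 of the 11 targets, whatever the size of the differences. Among them, Cyp3a25 had nearly equal means of 153.8 FPKM in ND+CCl4 and 153.7 FPKM in ND+oil. Cyp2b9 overlapped between ND+CCl4 and WD+oil, and between WD+CCl4 and ND+oil. Cyp2c29 was at 26.3 FPKM in WD+CCl4, 84.1 and 263.5 FPKM in ND+CCl4, 225 and 165 FPKM in WD+oil, and 514, 523 and 483 FPKM in ND+oil, where it was highest. Without 1 library, the ND+CCl4 calls held in 3 of 8 fits for Cyp3a11 and 4 of 8 for Cyp2c55. Both of these calls were lost without ND+CCl4 library 1. The WD+CCl4 calls held in 2 of 7 fits for Cyp3a11, 3 of 7 for Cyp2c55 and 3 of 7 for Cyp2c29. The WD+oil call for Cyp2c55 held in 4 of 8.

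The male-biased and female-biased genes of mouse liver were counted beside Slco1a1. Of 16 tested male-biased genes, 3 fell in WD+CCl4 (Hsd3b5, Cyp7b1 and Mup15), 7 in ND+CCl4 and 7 in WD+oil, and none rose. Of 6 tested female-biased genes, none passed in WD+CCl4 (limma, 2 at an unadjusted p under 0.05), 3 rose in ND+CCl4 (Cyp3a16, Cyp2a4 and Acot3) and 1 rose in WD+oil (Cyp2b9). Without 1 library, the ND+CCl4 calls held in 6 of 6 fits for Cyp3a16, 3 of 8 for Cyp2a4 (adjusted p = 0.254 without ND+CCl4 library 1) and 2 of 8 for Acot3 (adjusted p = 0.241 without the same library). The WD+oil call for Cyp2b9 held in 4 of 8 (adjusted p = 0.278 without WD+oil library 2). Hsd3b5, a steroid-metabolizing enzyme of male liver, was at 1.32 FPKM in WD+CCl4, 1.81 and 1.08 FPKM in ND+CCl4, 9.05 and 1.81 FPKM in WD+oil, and 80.2, 100.4 and 138 FPKM in ND+oil. Mup15, one of the urinary pheromone carriers of male mice, was at 2437 FPKM in WD+CCl4, 342 and 305 FPKM in ND+CCl4, 2184 and 3553 FPKM in WD+oil, and 9310, 8934 and 13334 FPKM in ND+oil. Without 1 library, the Mup15 call held in 2 of 7 fits in WD+CCl4 (adjusted p = 0.109 without ND+oil library 2) and in 8 of 8 in ND+CCl4, and that of Hsd3b5 in 7 of 7 in WD+CCl4, 8 of 8 in ND+CCl4 and 7 of 8 in WD+oil (adjusted p = 0.063 without WD+oil library 2). The copies of Mup15 are nearly identical in sequence, so reads may be divided between them. Over the 8 libraries, the genes most like Slco1a1 by Pearson correlation of log2(FPKM + 1) were Mup16 (r = 0.97), the elongase Elovl3 (r = 0.97) and the pseudogene Mup-ps14 (r = 0.96). Those most like Abcb4 were the vesicle GTPase Rab8a (r = 0.98), Rmnd1 (r = 0.97) and the vitamin B12 carrier Tcn2 (r = 0.97). The libraries share their groups, and these values are descriptions.

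**Figure D5:**
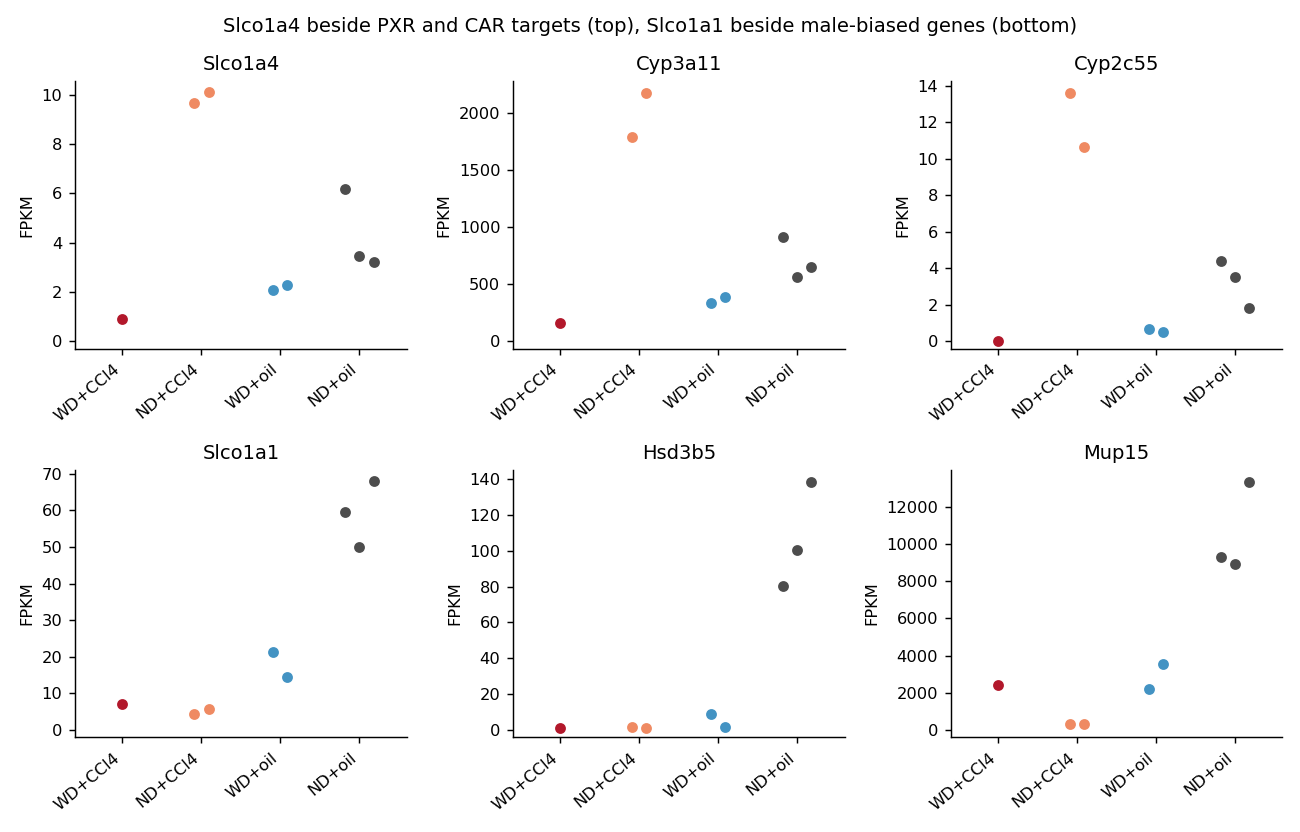
Level in FPKM (y axis, linear) in each library by group for Slco1a4 with the PXR and CAR targets Cyp3a11 and Cyp2c55 (top), and for Slco1a1 with the male-biased genes Hsd3b5 and Mup15 (bottom); each point is a library, and the genes beside the transporters were chosen after their values were seen. The top row is highest in ND+CCl4 (9.69 and 10.1 FPKM for Slco1a4) and the bottom row in ND+oil (59.6, 50.1 and 67.9 FPKM for Slco1a1).

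Cell type markers and liver zone genes that moved with the groups are given beside the transporter results. In bulk liver, fewer cells of a type and less RNA per cell cannot be told apart. None of the 11 tested hepatocyte markers passed in limma in WD+CCl4, ND+CCl4 or WD+oil, with 5, 6 and 4 at an unadjusted p under 0.05. The 12 Kupffer cell and macrophage markers summed to 613 FPKM in WD+CCl4, 203 and 603 FPKM in ND+CCl4, 705 and 1409 FPKM in WD+oil, and 94.6 to 186 FPKM in ND+oil, and 10 of the 12 rose in WD+oil, led by the scavenger receptor Marco (3.65 ± 0.44 on the log2 scale, adjusted p = 0.0139; 0.142 without WD+oil library 2). None of these 12 passed in WD+CCl4 or ND+CCl4 (limma, 10 and 6 at an unadjusted p under 0.05). The 6 neutrophil markers summed to 419.8 FPKM in WD+CCl4, 4.22 and 6.61 FPKM in ND+CCl4, 19.7 and 37.5 FPKM in WD+oil, and 1.77 to 9.02 FPKM in ND+oil. All 3 tested neutrophil markers rose in WD+CCl4 and 1 in WD+oil, S100a9 being at 267 FPKM in the WD+CCl4 library, and none passed in ND+CCl4 (limma, 0 at an unadjusted p under 0.05). The part of these cells in the transporter differences was not tested.

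Of 10 tested sinusoidal endothelial markers, 3 rose in WD+oil (Stab2, Pecam1 and Lyve1) and none passed in WD+CCl4 or ND+CCl4 (limma, 1 and 8 at an unadjusted p under 0.05). Of 10 tested stellate and myofibroblast markers, Rgs5 rose in ND+CCl4, Colec11, Rgs5 and Dcn rose in WD+oil, and none passed in WD+CCl4 (limma, 4 at an unadjusted p under 0.05). Of 5 erythroid genes, 3 haemoglobin genes rose in WD+oil and none passed in WD+CCl4 or ND+CCl4 (limma, 4 and 0 at an unadjusted p under 0.05). Of 8 monocyte-derived macrophage markers, Ly6c2 rose in WD+CCl4 and Lpl in WD+oil, and none passed in ND+CCl4 (limma, 5 at an unadjusted p under 0.05). None of 5 tested cholangiocyte markers passed in limma (2 in WD+CCl4, 3 in ND+CCl4 and 0 in WD+oil at an unadjusted p under 0.05), and neither did the single tested lymphocyte marker Nkg7 (0 at an unadjusted p under 0.05 in each comparison). The 10 cholangiocyte markers summed to 187 FPKM in WD+CCl4, 49.7 and 495 FPKM in ND+CCl4, 72.5 and 107 FPKM in WD+oil, and 30.6 to 54.3 FPKM in ND+oil. A single gene, Spp1, made up most of each sum. Spp1 was at 170 FPKM in WD+CCl4, 455 and 26.8 FPKM in ND+CCl4, and 58.4 and 94.8 FPKM in WD+oil. It was at 17.3 to 39.1 FPKM in ND+oil. Krt19, the defining keratin of cholangiocytes, was near the lowest listed values, at 1.13 FPKM in WD+CCl4, 0.832 and 0.522 FPKM in ND+CCl4, 0.909 and 0.965 FPKM in WD+oil, and 0.315 to 0.369 FPKM in ND+oil.

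Of 10 tested pericentral genes, the zone where CCl4 is known to injure hepatocytes, 2 fell in WD+CCl4 (Cyp1a2 and Slc1a2), 2 fell in ND+CCl4, and Rhbg rose and Cyp1a2 fell in WD+oil. In ND+CCl4 the glutamate carrier Slc1a2 fell by 2.81 ± 0.28 on the log2 scale (adjusted p = 0.00518). Glutamine synthetase Glul fell by 1.81 ± 0.25 (adjusted p = 0.0227). Without 1 library the Slc1a2 call held in 8 of 8 fits and the Glul call in 3 of 8. Of 12 tested periportal genes, Hsd17b13 rose in ND+CCl4, Hal and Sult5a1 fell in WD+oil and none passed in WD+CCl4 (limma, 3 at an unadjusted p under 0.05). Whether zone shares moved the transporter levels was not tested.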

How the data were processed

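Stranded poly(A) libraries were made from total liver RNA, per the labels' protocols. The submitters' processing notes name StringTie 2.1.0, HISAT2 2.2.1, cutadapt 3.7, FastQC 0.11.9 and GRCm38 as the build, with no role or setting. The authors deposited gene-level FPKM values, which are already scaled to library and gene length, so counts and depth are unknown and the number of libraries limits the precision. Columns were matched to samples by the column names in the labels.

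Genes that reached 1 FPKM in 2 or more libraries (11514 of 55487) were log2-transformed with a pseudocount of 1. Limma 3.58.1 (R 4.3.3; tables and figures in Python 3.11.15) was fitted to all 8 libraries with a mean per group and a variance trend, two-sided, with Benjamini-Hochberg adjustment over all tested genes of a comparison and a threshold of 0.05. The fit was tested on simulated data. It left 4 residual degrees of freedom, and moderation gave 7.93. No 2 libraries were identical.

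The 10 genes and the 21 other lists (222 distinct genes) were chosen with earlier results of these data known. The text names the 10 genes, counts for each list, up to 3 genes per list with the smallest p in ND+CCl4 or WD+oil against ND+oil, and for called transporters the 3 most correlated genes. Some named genes, such as Cyp3a11 in WD+CCl4 and Krt19, were chosen after their values were seen. Alternatives were the pseudocount, filters, 3 scalings, robust moderation, a replicate block, each library left out, only the groups compared, and another call rule. 1 alternative, leaving out 2 libraries together, was added after seeing the data. Promoter windows came from RefSeq on GRCm38.p6.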

Additional observations from a re-analysis of the deposited data

Results flagged for a closer look

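Some transporters had effects of diet or CCl4 that ran differently in the 2 settings of the design, and each was tested as the interaction of diet and CCl4 in limma. None passed the adjusted threshold, and each rests on the single WD+CCl4 library. For Slco1a1 the western diet effect was positive with CCl4 and negative with oil, and the interaction was 2.17 ± 0.38 on the log2 scale (adjusted p = 0.162). For Slco1a4 the CCl4 effect was negative on western diet and positive on normal diet, with an interaction of -1.81 ± 0.39 (adjusted p = 0.256). Abcc3 also had a negative CCl4 effect on western diet and a positive one on normal diet, with -1.92 ± 0.45 (adjusted p = 0.278). Abcb4 had the same pair of signs, with -0.84 ± 0.28 (adjusted p = 0.433). Abcc4, which was below the filter, had a lower level in WD+CCl4 than in ND+CCl4 and a higher one in WD+oil than in ND+oil, and its interaction in the fit with no filter was -0.78 ± 0.24 (adjusted p = 0.344). No group held enough libraries for a check of outlying libraries.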

How the results depend on the processing

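Of 984 recomputed transporter values, 902 kept their direction and side of the threshold, 35 lost the threshold, 10 gained it, and 37 changed sign in transporters that had not passed. Slco1a1 passed in 8 of 8 fits without 1 library in ND+CCl4 against ND+oil, 7 of 7 in WD+CCl4, 6 of 8 in WD+oil and 2 of 8 in ND+CCl4 against WD+oil; Slco1a4 passed in 3 of 8 there and Abcb4 in 3 of 8 in WD+oil. The cause was not tested for any change.

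Transporters that passed in WD+oil against ND+oil numbered 2, but 0 with no filter, 1 with median-of-ratios scaling, 1 with the Mup family removed, 1 by an unadjusted p under 0.05 with a 2-fold change, and 0 to 2 without 1 library. In ND+CCl4 the 1 became 2 with a common FPKM sum, 2 by the unadjusted rule and 1 to 2 without 1 library; in WD+CCl4 it became 2 by the unadjusted rule. In WD+CCl4 against WD+oil the 0 became 1 with only the groups compared and 2 by the unadjusted rule. In ND+CCl4 against WD+oil the 2 became 0 with no filter, 1 at a mean FPKM of at least 5, 0 with median-of-ratios scaling, 1 with only the groups compared, 0 with both ND+oil library 3 and ND+CCl4 library 1 left out, and 0 to 2 without 1 library. For the interaction the 0 became 3 by the unadjusted rule.

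Replicate numbers recur across groups, and what they stand for is not stated in the sources used here. Same-numbered libraries did not deviate together (r = -0.28 to -0.01). In groups of 2 or 3 libraries the deviations mirror each other, so these values cannot decide whether the numbers mark a shared batch. With a replicate block the transporters that passed were 0 in WD+oil, 1 in ND+CCl4 and 0 in WD+CCl4 against ND+oil, and 0 in ND+CCl4 against WD+oil; Slco1a1 had adjusted p = 0.0596 in WD+CCl4 and 0.0944 in WD+oil against ND+oil.

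Log2 fold changes that changed sign were, in WD+oil against ND+oil, Slco2b1 (-0.095, median-of-ratios) and Abcc2 (-0.26, median-of-ratios; -0.13, Mup removed; -0.10 with the block and also with both libraries left out; -0.10 to 0.11 without 1 library). In ND+CCl4 against ND+oil they were Slco2b1 (-0.29, median-of-ratios; -0.10, Mup removed; -0.041, block; -0.15 to 0.20 without 1 library), Slc10a1 (0.086 with both left out; -0.70 to 0.20), Abcb11 (0.27 with both left out; -0.70 to 0.15) and Abcc2 (-0.087 with both left out). Others were Slco2b1 in WD+CCl4 (0.083, common sum; -0.10 to 0.019 without 1 library) and Abcb11 in WD+CCl4 against WD+oil (-0.41 to 0.31). In ND+CCl4 against WD+oil they were Slco2b1 (0.038 with both left out; -0.32 to 0.038), Slc10a1 (-0.33 to 0.57), Abcb11 (-0.034 to 0.82) and Abcc3 (-0.069 to 0.34). For the interaction they were Slc10a1 (0.29, median-of-ratios; 0.038, Mup removed; 0.19, block; -0.53 to 0.37), Slco2b1 (0.13, median-of-ratios) and Abcb11 (-0.32 with both left out; -0.20 to 0.66).

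Counts over all genes depended on the settings: 508 genes in WD+oil against ND+oil ranged from 4 to 1159 without 1 library and 32 to 1104 otherwise, 164 in ND+CCl4 from 22 to 1165 and 18 to 588, and 107 in WD+CCl4 from 36 to 486 and 6 to 815. The share of calls that were higher was 72.0% in ND+CCl4 and 86.4% in WD+oil, and 40.7% and 74.9% with median-of-ratios scaling. Of 784 values of the other named genes, 580 kept their call, 184 lost it, 20 gained it and 0 changed sign.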
